A study of Bos taurus with 30 samples.

Results

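LPL, CD36, FABP4 and DGAT1 carry fatty acids into stored fat, and their expression was followed in visceral (omental) adipose tissue of heifer calves. The 4 genes were taken by Ensembl identifier (LPL ENSBTAG00000012855, CD36 ENSBTAG00000017866, FABP4 ENSBTAG00000037526 and DGAT1 ENSBTAG00000026356) from the 24596 genes of the deposited table, and each was used only if its mean value over the 30 libraries was above 10, which all 4 met. Names are those supplied with the identifiers when the genes were chosen, since no table used here pairs names with them. Tissue came from Angus × Holstein-Friesian heifers at 21 weeks of age, 15 on a high (HI) and 15 on a moderate (MOD) plane of nutrition, with 1 poly-A RNA library per calf. From 2 weeks of age by the labels, and slightly later by the paper's methods, HI calves were fed for a gain of 1.2 kg per day, with 10 litres of milk replacer per day and unlimited concentrate. MOD calves were fed for 0.5 kg per day, with 4 litres of milk replacer per day. By the paper's methods their concentrate was stepped up to at most 1 kg per day at weaning. Milk replacer ended with a calf phase of 8 weeks. In the 11 weeks that followed both diets had hay, with unlimited concentrate for HI and 1 kg per day for MOD calves.

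Fat cells fill their triglyceride store both by making fatty acids themselves and by taking them up from blood. Lipoprotein lipase (LPL), an enzyme held at the capillary wall, splits the triglyceride of circulating lipoproteins and so frees fatty acids beside the cell. CD36, a membrane receptor, helps them across the cell membrane, FABP4, an abundant fatty acid binding protein of the fat cell cytoplasm, carries them inside, and DGAT1 joins a last fatty acid to diacylglycerol to close triglyceride synthesis. LPL, CD36 and FABP4 are also made by macrophages or endothelial cells, so in bulk tissue fewer cells of a type and less RNA per cell cannot be told apart. Markers of fat cells and of other cell types were listed by symbol and were not analysed here.

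Values are reads per gene per 1000000 reads of the TMM-scaled library (TMM-normalized CPM), where TMM is the trimmed mean scaling that makes libraries comparable. Libraries held from 11847883 to 19383275 counted reads, and the lowest count behind any value of the 4 genes was 33656 reads for LPL, 19449 for CD36, 31355 for FABP4 and 2813 for DGAT1, so counting error was small beside the spread between calves. TMM factors averaged 0.94 ± 0.10 in HI and 1.07 ± 0.10 in MOD calves (SD, n = 15). Of the 30 libraries 3 stood apart on the first principal component of all tested genes, HI calf 2120, MOD calf 975 and MOD calf 911, with scores of 167, 88.8 and 49.5, the next score farthest from 0 being -25.5. HI calf 2120 also had the lowest TMM factor, 0.67, and the fewest genes with a read, 15339. Results that rest on these calves are given with and without them, except where stated.

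The question asked of each gene was whether the richer diet went with a different transcript level. By limma 0 of the 4 genes were called differentially expressed, a call needing both an adjusted p-value (Benjamini-Hochberg, over all genes) under 0.05 and a fold change above 1.5, where 6.72% of the 12738 genes tested were called, 4.36% as higher and 2.36% as lower in HI calves. At that adjusted p-value and any fold change, 0 of the 4 also passed, where 7.32% of genes passed as higher and 6.74% as lower. At an unadjusted p-value under 0.05 there were 2, LPL and CD36, where 27.5% of all genes tested passed. The exact and quasi-likelihood tests of edgeR and DESeq2, run on the recovered whole reads, also called 0 of the 4. Of the 12738 genes tested they called 1007, 926 and 1050, in that order. The mean log2 value of LPL was higher in HI calves and those of the other 3 genes were lower, and the median log2 fold change of the 4 was -0.19 beside -0.02 for all genes tested. The 4 genes together took 1.26% ± 0.28 of the counted reads in HI and 1.53% ± 0.25 in MOD calves (SD, n = 15), a share that uses no TMM scaling. Their TMM-normalized CPM summed to 13607 ± 3899 in HI and 14409 ± 2782 in MOD calves (SD, n = 15), a smaller gap. The median sums were 13082.8 in HI and 13820.9 in MOD calves. The highest sums were 26123.9 in HI calf 2120 and 19967.5 in MOD calf 975. They enter both means, and the size of the gap without these calves was not tested.

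LPL, which releases fatty acids from lipoproteins, had a TMM-normalized CPM of 4014 at the lowest, 5276 at the median and 6321 at the highest among HI calves. Among MOD calves the lowest was 2056, the median 4210 and the highest 7165. The MOD calves therefore lay on both sides of the HI calves, with 7 below the lowest HI calf, 5 inside the HI range and 3 above the highest HI calf. Means were 5475 ± 606 in HI and 4354 ± 1932 in MOD calves (SD, n = 15). The fold change was 1.38 (log2 fold change 0.47, standard error 0.18), with a 95% interval from 1.07 to 1.79 and an adjusted p of 0.088 (limma). A permutation test of LPL alone, two-sided as all such tests here, with no adjustment over genes, gave p = 0.0163, and p = 0.0480 without calves 2120, 975 and 911, at a fold change of 1.31. Of the HI calves 14 of 15 were above the MOD median. Leaving out MOD calf 2551, 1057 or 2346, the 3 MOD calves highest in LPL, brought the adjusted p to 0.0456, 0.0489 and 0.0469 (limma), with fold changes of 1.44, 1.43 and 1.44 that stayed under 1.5. Other tools gave smaller changes, with log2 fold changes of 0.33 by the exact test (adjusted p = 0.230), 0.33 by the quasi-likelihood test (adjusted p = 0.231) and 0.34 by DESeq2 (adjusted p = 0.175). With the size factors of DESeq2 in place of TMM, limma gave a log2 fold change of 0.48 (adjusted p = 0.0825). With libraries scaled by their size alone the fold change was 1.21, with a 95% interval from 0.95 to 1.54 that includes 1 (log2 fold change 0.28, adjusted p = 0.235, limma), and relative to the median gene it was 0.47 on the log2 scale, beside 0.48 with TMM.

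CD36, the membrane receptor for fatty acids, ran from 1497 through a median of 2734 to 3123 in HI calves. In MOD calves it ran from 2673 through 3048 to 4101. The diets overlapped in part, with 7 HI calves below the lowest MOD calf and 6 MOD calves above the highest HI calf. The mean was 2607 ± 507 in HI and 3130 ± 403 in MOD calves (SD, n = 15). The fold change was 0.82 (log2 fold change -0.28, standard error 0.11, adjusted p = 0.0765, limma), and its 95% interval of 0.71 to 0.96 does not reach a 1.5-fold reduction. With library size alone the interval, 0.59 to 0.88, did reach it. The permutation test of CD36 alone gave p = 0.00302, and p = 0.00652 without HI calf 2120, the calf lowest in CD36. With DESeq2 the adjusted p was 0.0335 at a log2 fold change of -0.26, and with libraries scaled by their size alone it was 0.0132 (limma) at -0.47, again under the fold change threshold. Scaling by library size alone shifted the median gene from -0.02 to -0.19 on the log2 scale, and relative to it CD36 was at -0.28, beside -0.26 with TMM.

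FABP4, the fatty acid carrier of the cytoplasm, ran from 2159 through a median of 4356 to 18163 in HI calves. In MOD calves it ran from 3501 through 5867 to 14834. The highest values came from HI calf 2120 and MOD calf 975, and the next highest HI calf was at 6631. Means were 5170 ± 3764 in HI and 6548 ± 2870 in MOD calves (SD, n = 15), and 13 of 15 HI calves were below the MOD median. With all calves the fold change was 0.74, with a 95% interval from 0.54 to 1.01 (adjusted p = 0.199, limma), and the permutation test gave p = 0.0619.

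The FABP4 result turned on HI calf 2120. Without it the HI mean was 4242 ± 1160 (SD, n = 14), the log2 fold change was -0.58 with an adjusted p of 0.0214 (limma), and the fold change of 0.67 sat at the 1.5-fold threshold without passing it. In that fit 2743 of the 12738 genes passed an adjusted p-value of 0.05 at any fold change. On the recovered reads without this calf the exact test gave a log2 fold change of -0.63 with an adjusted p of 0.00508, the quasi-likelihood test -0.63 with 0.0137 and DESeq2 -0.62 with 0.00387, each past both thresholds. Over the 12738 genes these fits called 1135, 1079 and 1142. They kept MOD calf 975, the highest MOD calf in FABP4, and were not run without it. Without calves 2120, 975 and 911 together the log2 fold change was -0.45 with an adjusted p of 0.0462 (limma), and 2704 genes passed that adjusted p-value of 0.05. With library size alone and all calves the log2 fold change of FABP4 was -0.63 with an adjusted p of 0.0280 (limma). That passed both thresholds, as 1130 of the 12738 genes did, although relative to the median gene FABP4 was at -0.43, beside -0.42 with TMM.

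DGAT1, which closes triglyceride synthesis, ran from 183 through a median of 334 to 815 in HI calves. In MOD calves it ran from 189 through 391.5 to 593. Every MOD calf lay inside the HI range, and the HI maximum was again calf 2120, the next being at 441. Means were 355 ± 141 in HI and 377 ± 115 in MOD calves (SD, n = 15). The fold change was 0.94 (adjusted p = 0.779, limma), and its 95% interval of 0.74 to 1.19 lay inside 1.5-fold in both directions. Without HI calf 2120 the fold change was 0.88 (adjusted p = 0.394, limma), and with library size alone it was 0.82 (adjusted p = 0.146, limma). A share of 26.5% of the genes tested had a smaller change in size than DGAT1 with all calves.

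**Figure D1:**
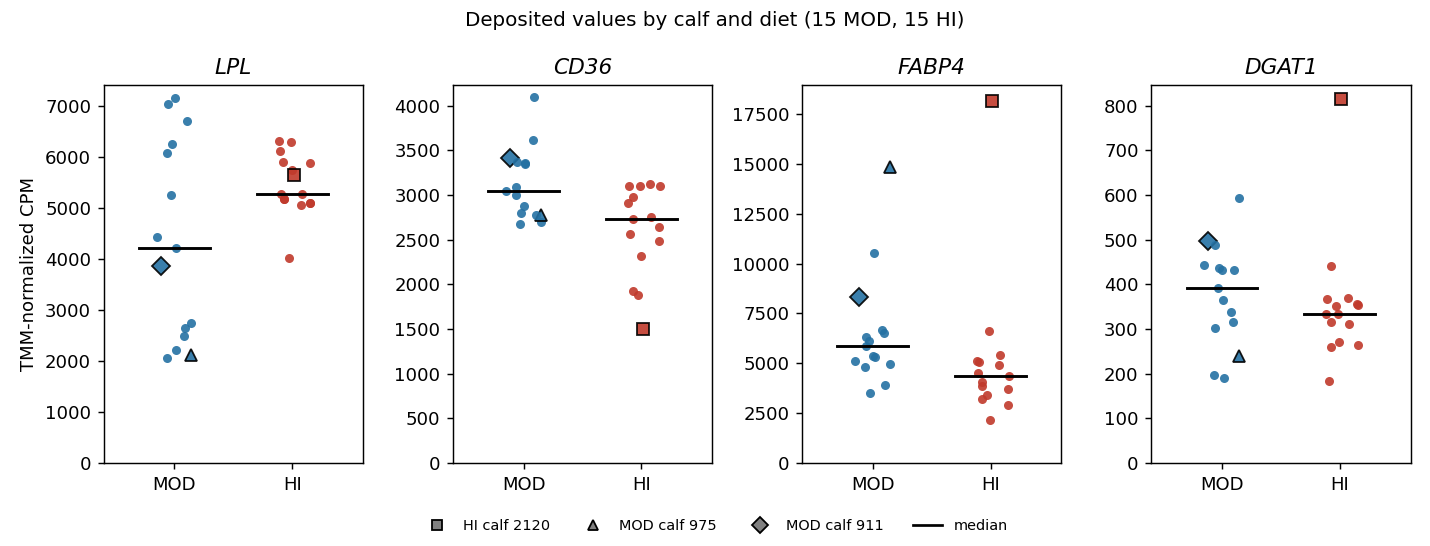
TMM-normalized CPM (linear axes from 0) of LPL, CD36, FABP4 and DGAT1 in each of 15 MOD (blue) and 15 HI (red) calves, with a black line at the median and the calves 2120, 975 and 911 as square, triangle and diamond. HI calves are bunched between 4014 and 6321 for LPL while MOD calves run from 2056 to 7165, and calf 2120 is the highest HI calf for FABP4 and DGAT1 and the lowest for CD36.

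**Figure D2:**
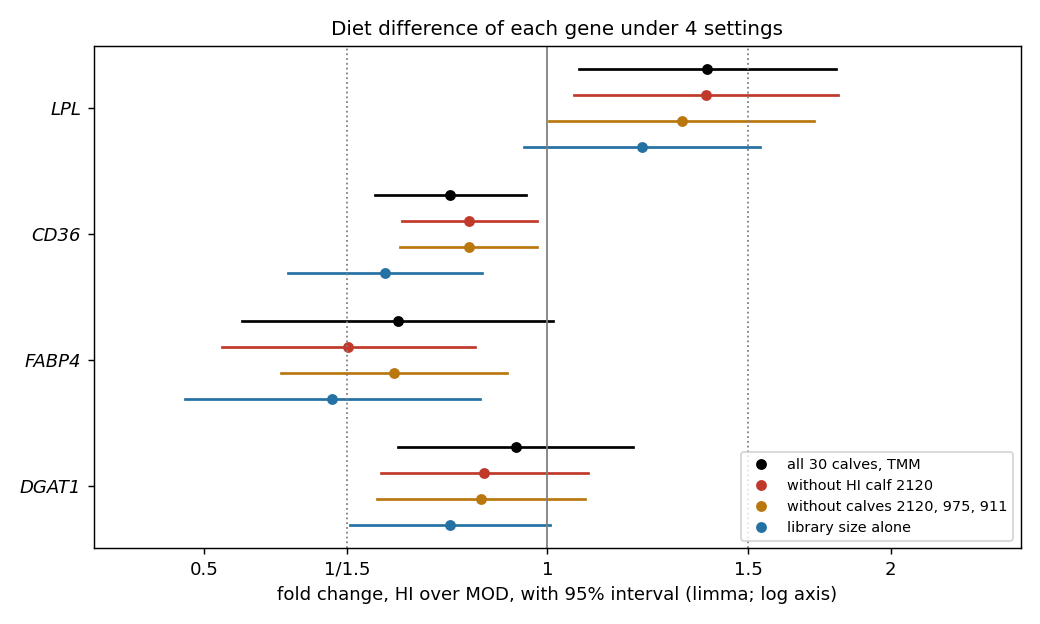
Fold change of HI over MOD (log axis, points) with its 95% interval from limma (lines) for the 4 genes, with all calves, without HI calf 2120, without calves 2120, 975 and 911, and with library size alone, and dotted lines at 1.5-fold in each direction. LPL lies above 1 and the other 3 genes below 1 in each setting drawn, and the DGAT1 interval includes 1 in all 4.

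The 3 calves that stood apart did not share one pattern over the 4 genes. HI calf 2120 had 4.31 times the FABP4 and 2.45 times the DGAT1 of the median of the other HI calves, 1.07 times the LPL and 0.55 times the CD36. With library size alone these were 3.01, 1.62, 0.75 and 0.38 times. MOD calf 975 shared the high FABP4, at 2.65 times the median of the other MOD calves, but was low in LPL and DGAT1, at 0.49 and 0.58 times, and its CD36 was at 0.90 times. In MOD calf 911 the 4 genes were between 0.90 and 1.49 times the median of the other MOD calves. FABP4 was among the genes raised most in these 2 libraries, with 3.11% of the genes tested raised further in calf 2120 and 2.56% in calf 975.

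Because the scaling of the libraries cancels within a calf, ratios between the genes asked whether the 4 changed by the same factor. LPL rose against each of the other 3 genes in HI calves, and the other 3 did not change detectably against each other. The ratio of the LPL to the CD36 value was between 1.62 and 3.77 in HI calves (median 2.05) and between 0.65 and 2.49 in MOD calves (median 1.26). Each of the 15 HI calves exceeded the median MOD calf, and 9 MOD calves were below the lowest HI calf. The change was 1.68-fold (log2 difference 0.75, standard error 0.21, permutation test, adjusted p = 0.00798 over 6 pairs).

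Against FABP4, LPL changed by 1.87-fold (log2 difference 0.90, standard error 0.31, permutation test, adjusted p = 0.0139), and the ratio was above the MOD median in 14 of 15 HI calves, the exception being calf 2120 at 0.31. Against DGAT1 it changed by 1.47-fold (log2 difference 0.56, standard error 0.19, permutation test, adjusted p = 0.0139), with 13 of 15 HI calves above the MOD median. The differences for the ratios CD36/FABP4, CD36/DGAT1 and FABP4/DGAT1 were 0.15 ± 0.25, -0.19 ± 0.22 and -0.34 ± 0.25 on the log2 scale (± standard error), with adjusted p-values of 0.587, 0.502 and 0.267 (permutation tests). Their 95% intervals (t distribution) ran from -0.37 to 0.67, -0.64 to 0.26 and -0.85 to 0.16. Without HI calf 2120 the CD36/FABP4 ratio was higher in HI calves by 0.35 on the log2 scale (permutation test, adjusted p = 0.0494). Without calves 2120, 975 and 911 together that difference was 0.22 (permutation test, adjusted p = 0.155). Without MOD calf 975 alone it was 0.050 (permutation test, adjusted p = 0.891). The 3 LPL ratios stayed past the threshold with any 1 of the 30 calves left out, with adjusted p-values of at most 0.0252 (permutation tests).

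**Figure D3:**
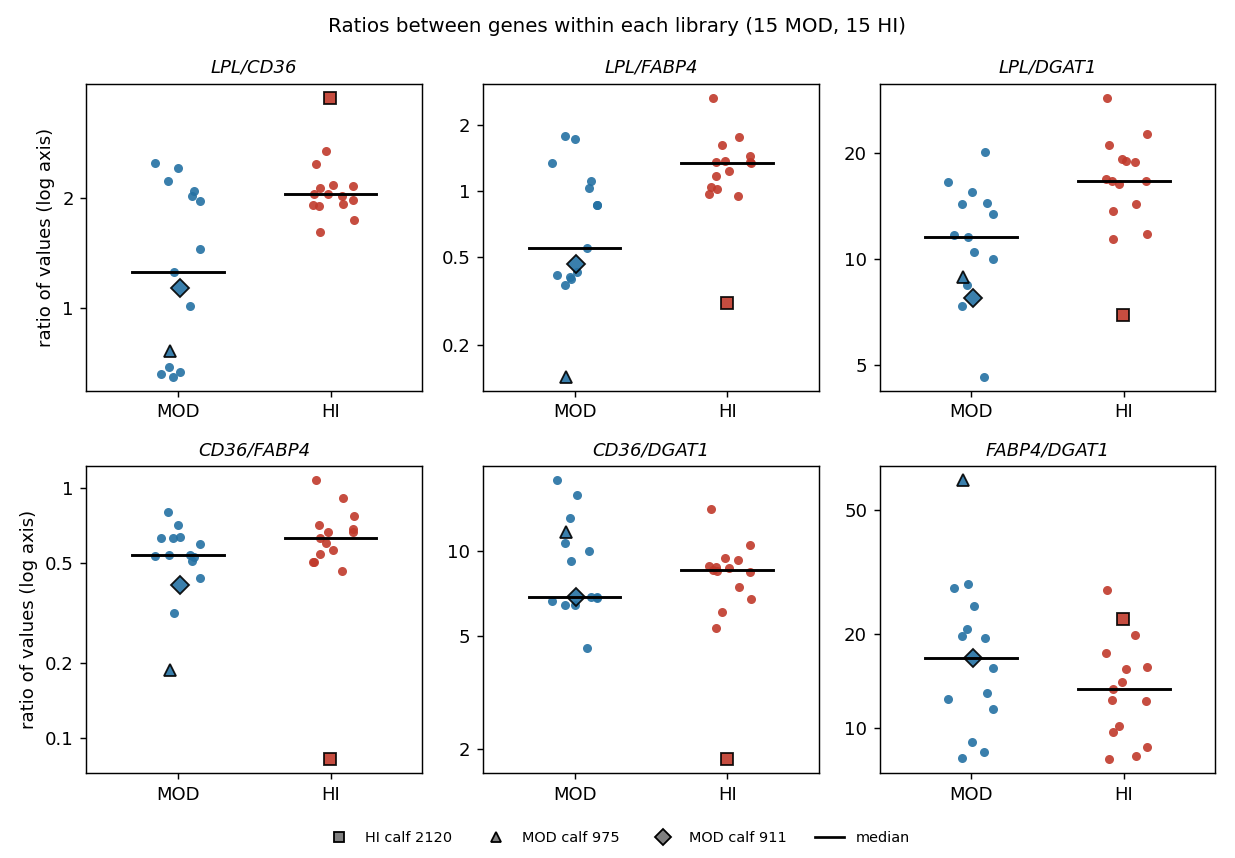
Ratio of the values of 2 genes within each library (log axes) for the 6 pairs, in 15 MOD (blue) and 15 HI (red) calves, with medians as black lines and calves 2120, 975 and 911 marked. The LPL/CD36 ratio of all 15 HI calves is above the MOD median of 1.26, while the 3 ratios without LPL overlap widely between the diets.

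Calves differed in LPL much less on the HI than on the MOD diet, a comparison added after the values were seen. The SD of log2 LPL was 0.17 in HI and 0.68 in MOD calves, and the mean distance from the diet's own median was 0.13 against 0.59. A permutation test of that distance gave p = 3e-05, 1 of 4 such tests. None of the 12737 other genes tested had a lower ratio of HI to MOD SD than LPL, at -2.02 on the log2 scale, where the median gene was at 0.13. Without calves 2120, 975 and 911 the ratio was -1.98 against a median of -0.19, with 9 genes lower, and the permutation test gave p = 0.00011. With library size alone the SDs were 0.24 in HI and 0.60 in MOD calves, a ratio of -1.31 against a median of 0.11, with 111 genes lower (permutation test, p = 0.00035). In the MOD diet the widest step between neighbouring calves was from 2737 to 3868, with 6 calves below it and 9 above.

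For the other 3 genes a difference in spread between the diets was not detected. CD36 had SDs of 0.32 in HI and 0.18 in MOD calves (permutation test, p = 0.238), FABP4 0.69 and 0.53 (p = 0.703) and DGAT1 0.46 and 0.49 (p = 0.468). Without calf 2120 the HI SD of FABP4 was 0.42. Without calves 2120, 975 and 911 the SDs of DGAT1 were 0.31 in HI and 0.48 in MOD calves (permutation test, p = 0.215). Those of CD36 were then 0.24 and 0.18 (permutation test, p = 0.497) and those of FABP4 0.42 and 0.39 (permutation test, p = 0.640).

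**Figure D4:**
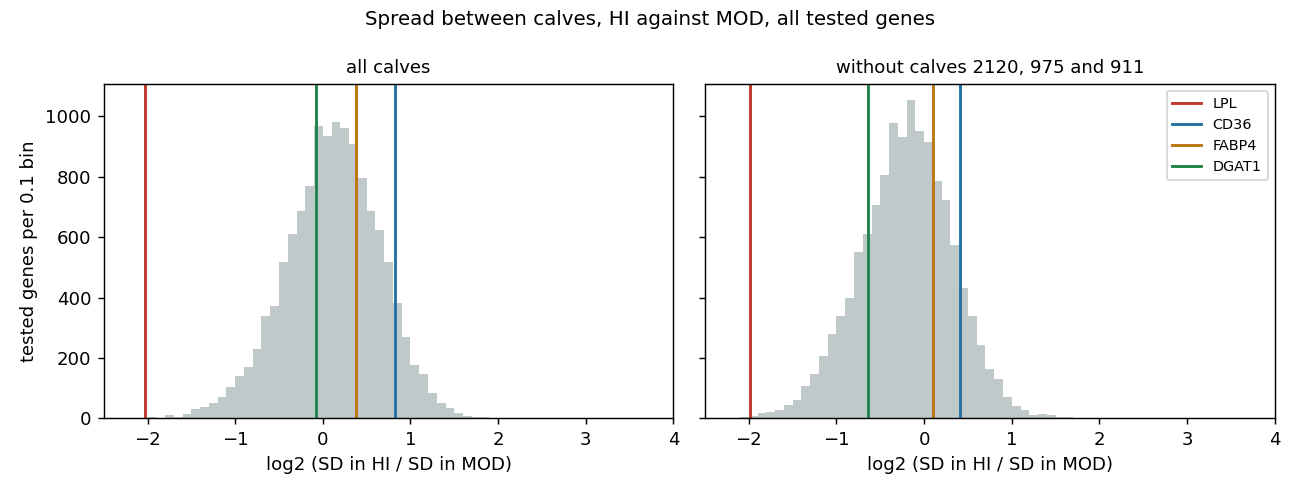
From TMM-normalized values, the number of tested genes (of 12738) per bin of the log2 ratio of the SD in HI to the SD in MOD calves, with all calves (left) and without calves 2120, 975 and 911 (right), and coloured lines for the 4 genes. LPL is at the far left of both panels, at -2.02 and -1.98, while the other 3 genes lie within the bulk.

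The genes were next compared across calves, to ask whether a calf high in one was high in another. Values were centred on the diet mean, so that the diet difference did not enter, and 6 pairs were tested. No pair passed an adjusted p-value of 0.05 with all 30 calves. The highest was LPL with DGAT1, at Pearson's r = 0.43 (permutation p = 0.0204, adjusted p = 0.122) and Spearman's rho = 0.41 (permutation p = 0.0380, adjusted p = 0.126). Without the 2 calves farthest out in LPL, r was 0.26 (permutation p = 0.166), so that the relation rests in part on those calves. It came to r = 0.61 in MOD calves (n = 15, permutation p = 0.0172, adjusted p = 0.103) and 0.03 in HI calves (n = 15, permutation p = 0.910). A permutation test of that difference gave p = 0.146 (adjusted p = 0.278). It moved diet labels between calves, and the spread of LPL differed between the diets. Its p-value therefore does not measure a difference in correlation alone. Over all 12737 other genes tested, 11.1% were more alike to LPL than DGAT1 was.

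For CD36 and FABP4, the receptor and the carrier, Pearson's r depended on the calves that stood apart, while rho was above 0 with and without them. With all 30 calves r was -0.13 (permutation p = 0.522, adjusted p = 0.626), although rho was 0.38 (permutation p = 0.0419, adjusted p = 0.126). Without calves 2120, 975 and 911 r was 0.57 (n = 27, permutation p = 0.00262, adjusted p = 0.0157) and rho 0.66 (permutation p = 0.00033, adjusted p = 0.00198). Leaving out the 2 further calves farthest out in CD36 kept r at 0.58 (permutation p = 0.00233, adjusted p = 0.0140). Over the same 27 calves it was 0.60 within HI (n = 14, permutation p = 0.0237, adjusted p = 0.0711) and 0.54 within MOD (n = 13, permutation p = 0.0605, adjusted p = 0.182). CD36 then stood 112th of 12737 genes in likeness to FABP4, a description over genes that share libraries. Leaving out calf 2120 alone gave r = 0.40 (permutation p = 0.0270, adjusted p = 0.0810) and rho = 0.55 (permutation p = 0.00224, adjusted p = 0.0134).

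The remaining pairs had r of -0.07 (LPL with CD36), -0.16 (LPL with FABP4), -0.31 (CD36 with DGAT1) and 0.24 (FABP4 with DGAT1), with rho between -0.06 and -0.004 and adjusted permutation p-values of 0.301 and above. LPL and CD36 had r of 0.42 within HI calves (n = 15, permutation p = 0.125, and 0.65 without calf 2120) and -0.32 within MOD calves (n = 15, permutation p = 0.242). That difference did not pass the correction (permutation test, p = 0.0122, adjusted p = 0.0732 over 6 pairs), and the unequal spread of LPL limits this test too.

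**Figure D5:**
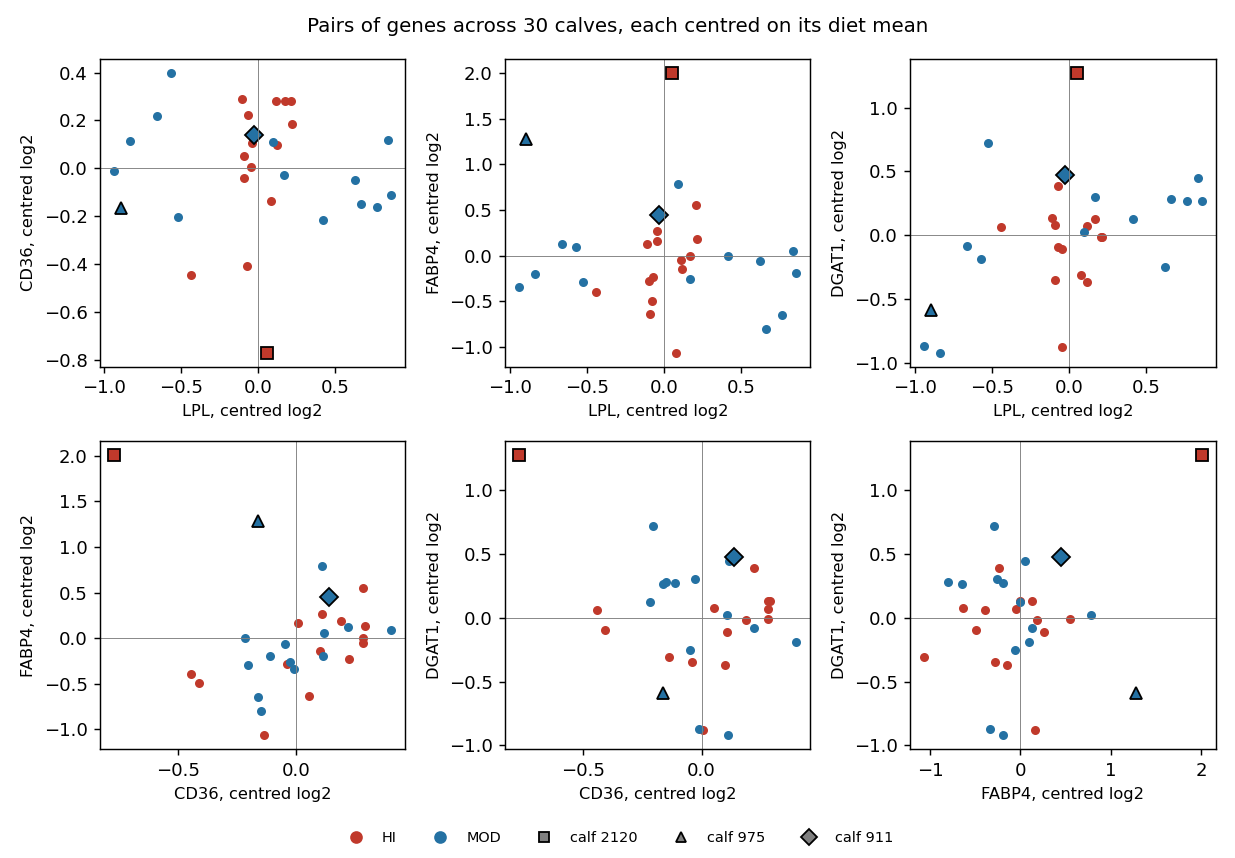
Log2 values of each pair of genes in 30 calves, each centred on its diet mean (0 on both axes), with HI calves in red, MOD calves in blue and calves 2120, 975 and 911 marked. In the panel of CD36 and FABP4 calf 2120 sits alone at the upper left, and the calves other than 2120, 975 and 911 rise together (r = 0.57).

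Some of the variation between calves ran with the TMM factor of the library, which differed between the diets. Centred on diet, CD36 was higher where the factor was higher (r = 0.59, permutation p = 0.00205, adjusted p = 0.00820 over 8 relations, and rho = 0.45, permutation p = 0.0117), and r was 0.40 (permutation p = 0.0387) without the 2 calves farthest out. DGAT1 and LPL were lower where it was higher, with r of -0.62 (permutation p = 0.00094, adjusted p = 0.00752, and rho = -0.47, permutation p = 0.00974) and -0.39 (permutation p = 0.0169, adjusted p = 0.0450, and rho = -0.36, permutation p = 0.0555). Without the 2 calves farthest out DGAT1 had r = -0.33 (permutation p = 0.0938) and LPL r = -0.38 (permutation p = 0.0574), so these 2 relations no longer passed, while without calves 2120, 975 and 911 they were at -0.47 (permutation p = 0.0186) and -0.57 (permutation p = 0.00366). FABP4 had r = -0.28 (permutation p = 0.148, adjusted p = 0.295, and rho = 0.05, permutation p = 0.803). Its sign turned on the calves that stood apart. Without the 2 calves farthest out r was 0.27 (permutation p = 0.181), and without calves 2120, 975 and 911 it was 0.38 (permutation p = 0.0556). None of the 4 genes followed the number of reads counted, with r between -0.19 and 0.14 (permutation p of 0.359 and above). The deposited values contain the factor as a divisor. With library size alone, where it is no divisor, r was -0.08 for LPL (permutation p = 0.647, adjusted p = 0.970), -0.35 for DGAT1 (permutation p = 0.0615, adjusted p = 0.246) and 0.83 for CD36 (adjusted permutation p = 8e-05), with rho of -0.14 (permutation p = 0.481), -0.20 (permutation p = 0.288) and 0.76 (permutation p = 1e-05, the smallest these permutations can give). The relations of LPL and DGAT1 thus passed only on the deposited scale, and that of CD36 passed on both. With library size alone, however, a gene steady on the deposited scale rises with the factor by construction. Neither scale is therefore free of the factor, and r with the factor was not computed for all genes. With library size alone FABP4 had r = -0.03 with all calves (permutation p = 0.893). Without calves 2120, 975 and 911 it had r = 0.60 (permutation p = 0.00118). The factor's part in the diet differences of CD36, FABP4 and LPL, and in the correlation of CD36 with FABP4, was not tested.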

How the data were processed

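Visceral adipose RNA of 15 HI and 15 MOD calves was sequenced with 1 library per calf from a stranded poly-A kit. Per the paper's methods, reads were trimmed with Cutadapt, aligned with STAR to the UMD3.1 genome, counted per gene by STAR and normalized with the TMM method of edgeR, and the strand setting is not given in the sources used here. The submitters' processing notes name FastQC 0.11.8, cutadapt 2.6, STAR 2.6.1, R 3.4 and edgeR 3.5, which differ from the versions in the paper. The authors deposited 1 table of 24596 genes whose values are a signal, the reads of a gene divided by the TMM-scaled library size and multiplied by 1000000.

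Whole reads were recovered by dividing each library by the worth of 1 read, and 100% of values above 0 were whole within 0.01 of a read. Genes that exceeded 1 in 15 or more libraries were tested with limma 3.58.1 (R 4.3.3) on log2(value + 0.5), a scale that understates changes of low genes. The exact and quasi-likelihood tests of edgeR 4.0.16, with the deposited TMM factors, and DESeq2 1.42.0 were run on recovered reads. On simulated counts for 12738 genes limma recovered 85 of 96 genes changed 2-fold and 104 of 104 changed 4-fold, with 5 unchanged genes called. The exact test, the quasi-likelihood test and DESeq2 called 12, 5 and 14 unchanged genes. No change smaller than 2-fold was planted, so recovery of changes as small as those of the 4 genes was not tested. Two-sided permutation tests used 100000 resamples, calves being permuted within diet where values were centred. Differences between correlations used 20000 resamples of the diet labels.

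The 4 genes and the lists were chosen with earlier results of these data known. The rule for named genes also took called genes of 6 pathway lists, 7 marker lists and the genes most like each member, by symbol. The gene table at hand holds 0 Ensembl identifiers, so these lists, ratios to PLIN1 and ADIPOQ, and the sequences of the 4 genes were not analysed here, and its coordinates, on another assembly than UMD3.1, were not used. The design's blocking on age, weight and sire could not be used, since the block of a calf is not in the labels. The alternatives were other tools, pseudocounts (0.1 and 1), scalings, filters and thresholds, and leaving out calves. The test of spread, the difference between correlations, the relation to TMM factors, the spread with library size alone, the summed values of the 4 genes, fits without HI calf 2120 with other tools, correlations with DESeq2 size factors, the counts of calves outside the other diet's range and the lists of most alike genes were chosen after seeing the data.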

Additional observations from a re-analysis of the deposited data

How the results depend on the processing

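No alternative reversed the direction of a diet difference of LPL, CD36, FABP4 or DGAT1, and LPL, CD36 and DGAT1 passed the adjusted p-value and the fold change threshold together under none. FABP4 passed both with library size alone (log2 fold change -0.63) and, without HI calf 2120, with the exact test (-0.63), the quasi-likelihood test (-0.63), DESeq2 (-0.62) and library size alone (-0.74). With each calf left out in turn the log2 fold changes ran from 0.40 to 0.53 for LPL, -0.30 to -0.23 for CD36, -0.58 to -0.34 for FABP4 and -0.18 to -0.03 for DGAT1.

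The log2 ratio differences with a calf left out ran from 0.68 to 0.82 (LPL/CD36), 0.75 to 1.04 (LPL/FABP4), 0.47 to 0.65 (LPL/DGAT1), 0.050 to 0.35 (CD36/FABP4), -0.26 to -0.04 (CD36/DGAT1) and -0.42 to -0.21 (FABP4/DGAT1). The correlations ran from -0.13 to 0.00230 (LPL and CD36), -0.23 to -0.02 (LPL and FABP4), 0.35 to 0.53 (LPL and DGAT1), -0.19 to 0.40 (CD36 and FABP4), -0.35 to -0.000144 (CD36 and DGAT1) and -0.14 to 0.39 (FABP4 and DGAT1). Without MOD calf 3622 LPL and DGAT1 passed the threshold at 0.53 (permutation test, adjusted p = 0.0137).

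Weak correlations changed sign. CD36 with FABP4 was 0.38 as Spearman's rho, 0.00519 with library size alone, 0.57 without calves 2120, 975 and 911, 0.40 without the 2 calves farthest out and 0.40 without HI calf 2120. FABP4 with DGAT1 was -0.00378 as rho, -0.052 without the 3 calves and -0.14 without calf 2120. LPL with CD36 was 0.054 with library size alone and 0.00230 without MOD calf 2532, and CD36 with DGAT1 was 0.0397 without the 2 calves farthest out. The difference of FABP4 in mean distance from the diet median, HI minus MOD, was -0.0467 without calf 2120, against 0.0692 with all calves, and ran from -0.0467 to 0.138 with a calf left out. 

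Over all genes limma called 856, 556 up-regulated and 300 down-regulated in HI, and from 723 to 991 (471 to 643 up, 249 to 351 down) with a calf left out. Without the fold change threshold 1790 were called (932 up, 858 down), at an adjusted p-value under 0.01 504 (331 up, 173 down), and with library size alone 351 up and 779 down. Without HI calf 2120 the down-regulated genes numbered 524 (exact test), 504 (quasi-likelihood test), 517 (DESeq2) and 753 (library size alone). The causes were not tested. No paired analysis was possible because no label places a calf in a block and no calf was on both diets. The pathway lists and the ratios to PLIN1 and ADIPOQ were not run. Depth did not limit the 4 genes.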

Other observations

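Among the 100 tested genes with the highest r to LPL, centred on diet (r from 0.75 to 0.90), 49 were called higher in HI calves and 0 lower, where 4.36% of all genes tested were called higher and 2.36% lower. Their median log2 fold change was 0.73 beside -0.02 for all genes tested. Likeness taken within MOD calves alone gave 53 called higher and 0 lower of 100, and within HI calves alone 5 higher and 2 lower. Without calves 2120, 975 and 911 it gave 45 higher and 0 lower. The lists were made after seeing the data and their genes share libraries, so the counts are a description with no test.

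The same lists over all 30 calves held 8 genes called higher and 1 lower for DGAT1, 0 higher and 2 lower for FABP4 and 0 higher and 1 lower for CD36. Within MOD calves alone they held 22 higher and 1 lower for DGAT1, 0 higher and 3 lower for FABP4 and 1 higher and 7 lower for CD36. Within HI calves alone they held 0 higher and 4 lower for DGAT1, 1 higher and 5 lower for FABP4 and 0 of either for CD36. Without calves 2120, 975 and 911 they held 10 higher and 0 lower for DGAT1, 1 higher and 8 lower for FABP4 and 0 of either for CD36. FABP4 had r above 0.7 with 627 genes over all 30 calves and with 4 genes without calves 2120, 975 and 911.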
